A study of Mus musculus with 6 samples.

Results

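Ectonucleotidases are the enzymes that break down nucleotides such as ATP outside the cell and in the lumen of the secretory pathway. They were examined here in mouse liver with and without forced expression of the transcription factor TFEB. A list of 10 genes was taken, and every probe set (the group of array probes that reads a transcript) annotated to exactly 1 gene of that list was kept. This gave 14 probe sets for 6 genes, of 20380 single-gene probe sets for 12393 genes in the whole table. The 6 genes were Entpd1, Entpd2, Entpd5, Entpd6, Nt5e and Enpp3. Entpd4 was read only by 3 probe sets that are also annotated to another gene, so it was left out, and Entpd8, Enpp1 and Enpp2 were not analysed here. The members were chosen by gene family after the log2 difference of Entpd2 between these same arrays was seen. The differences between groups are therefore given for the members as a description, and a statement that a probe set passed the threshold says only where it lay in the fit over all probe sets.

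Each array read the liver RNA of 1 mouse at postnatal day 9, and there were 3 transgenic and 3 wild-type mice. The transgenic mice came from a cross of a conditional Tcfeb (now Tfeb) overexpression line with Alb-Cre mice, in which the albumin promoter, active in hepatocytes, drives Cre recombinase. The labels do not say whether the wild-type mice carried either allele, nor do they describe the construct. Values are log2 expression as deposited, with mean ± SD over the 3 arrays of a group. A difference is the transgenic mean less the wild-type mean, and its standard error (SE) comes from limma. Precision is limited by having 3 arrays a group. The labels call the arrays biological replicates.

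The albumin gene Alb, which marks hepatocytes, gave the highest value on every array (14.87 to 14.88 in transgenic and 14.84 to 14.90 in wild-type liver). The only probe set of Tfeb read 6.36 to 6.61 in transgenic and 6.58 to 6.91 in wild-type arrays. Its difference of -0.21 (SE 0.11) did not pass the threshold, so forced expression of Tfeb was not seen on these arrays. This probe set may lie outside what the construct carries, which was not tested. Transgenic replicate 1 stood apart in the sex-linked genes, with Xist at 5.58 against 13.03 to 13.19 on the other arrays and Eif2s3y at 9.32 against 3.06 to 3.43. Those are the readings of a male liver on that array and of female livers on the others. Sex was thus not balanced between the groups. Wild-type replicate 1 stood apart in Ada, the adenosine deaminase gene, at 8.58 against 5.56 and 5.13 in the other wild-type livers. It was also highest among the wild-type arrays for the epithelial genes Cftr (6.58 against 4.35 and 4.74) and Cldn7 (7.89 against 6.34 and 6.26). The bacterial RNAs bioB, bioC and bioD, added as hybridisation controls, read lower in the transgenic group on all 14 of their probe sets without overlap (median -0.37). Scaling the arrays to those controls moved the median difference of all probe sets from -0.04 to 0.34 and the share of passing probe sets that were higher from 51.0% to 93.4%. The share of all probe sets that passed went from 35.4% to 61.3%. These shares stand beside every later count on that scale. Directions below are on the deposited scale.

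ATP released from cells acts on P2X and P2Y receptors until surface enzymes remove it. The NTPDases (Entpd genes) strip phosphates from ATP and ADP, the pyrophosphatases of the Enpp family cut ATP to AMP and pyrophosphate, and Nt5e (CD73) turns AMP into adenosine, which has receptors of its own. In liver these enzymes are spread over hepatocyte membranes, endothelium, immune cells and the fibroblasts around the portal tracts. Some relatives, Entpd5 and Entpd6 among them, work inside the secretory pathway or are secreted.

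A single ectonucleotidase gene rose and 3 probe sets fell. Entpd2 was higher in transgenic liver, Entpd6, Nt5e and 1 of 5 Enpp3 probe sets were lower, and the other 10 probe sets, including all 4 of Entpd5 and both of Entpd1, did not pass. An adjusted p of 0.05 over 22626 probe sets was passed by 4 of the 14, against 35.4% of all probe sets (18.1% higher and 17.3% lower). The groups did not overlap for 7 of the 14, against 50.5% of all probe sets. The median difference of the 14 was -0.16, against -0.04 for all probe sets, and the median absolute difference was 0.21, against 0.20. A passing difference of 2-fold or more was seen for 1 member probe set, Entpd2, and for 4.27% of all.

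**Figure D1:**
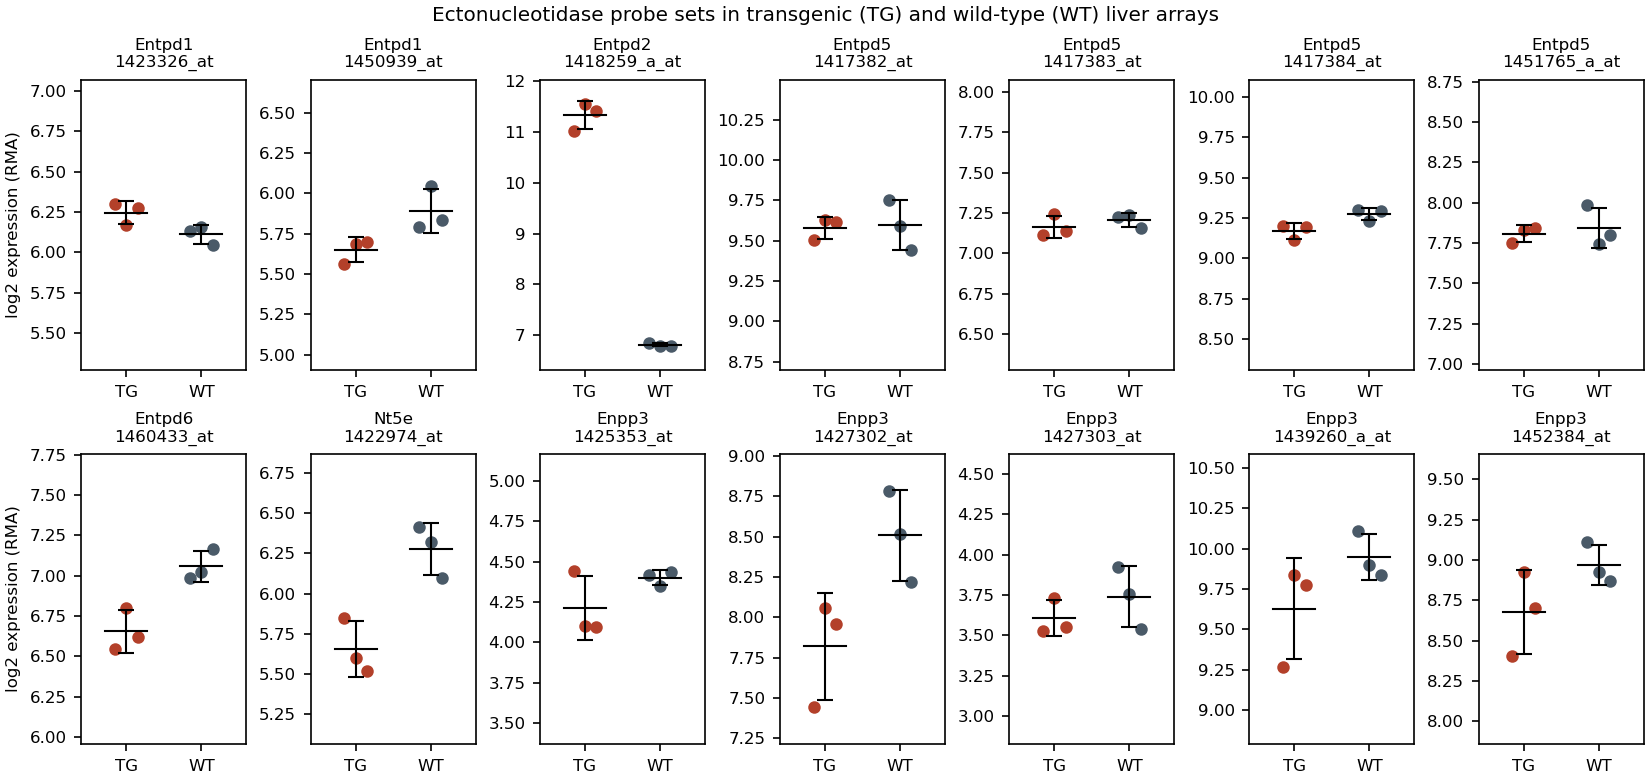
Log2 expression of the 14 ectonucleotidase probe sets (1 panel each) in the 3 transgenic (TG, red) and 3 wild-type (WT, grey) arrays, with the mean as a horizontal line and the SD as error bars. Each panel has its own vertical range. Entpd2 lies between 11.02 and 11.55 in transgenic and between 6.79 and 6.85 in wild-type arrays.

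Entpd2 encodes NTPDase2, which removes the terminal phosphate of ATP and so leaves ADP. Its probe set (1418259_a_at) read 11.02, 11.55 and 11.42 in the transgenic livers and 6.85, 6.79 and 6.79 in the wild-type livers. Every transgenic array was thus more than 4 log2 units above every wild-type array. The mean was 11.33 ± 0.28 in transgenic and 6.81 ± 0.03 in wild-type liver (SD, n = 3 each), a difference of 4.52 (SE 0.13), or 22.9-fold. It ranked 8 among 22626 probe sets by size of rise. The wild-type values lay close to the median of all probe sets on those arrays (6.74 to 6.76), and the signal over background is unknown because no detection calls are in the table. Without transgenic replicate 1, the lowest of its group, the difference was 4.67, and without wild-type replicate 1 it was 4.54. It was 4.90 with the arrays scaled to the bacterial controls.

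In rodent liver, Entpd2 protein is known from portal fibroblasts. Of 8 marker genes of those cells, 2 were higher (Cd34 by 1.42 and Thy1 by 0.41) and 3 lower, among them the elastin gene Eln, which fell by 0.79. Of all 12393 genes, by the brightest probe set of each, 19.1% were higher and 19.5% lower. Those shares stand beside this and every later marker count. The summed level of the 8 portal fibroblast markers was 9.65 to 9.75 in transgenic and 9.80 to 9.95 in wild-type arrays, as log2 of the summed linear values. The count of 3 was 1 or 2 in each fit with an array left out, and 1 with cyclic loess, with the replicate block and on the scale of the bacterial controls, since Mfap4 and Pi16 each kept their call in 2 of the 6 fits with an array left out. Of 8 cholangiocyte (bile duct cell) markers, 5 were higher and 1 lower, with Cldn4 up by 4.61, Cldn7 up by 3.56 and Prom1, which fell by 1.89, as the lower one. The bile duct keratin gene Krt19 did not pass (6.79 ± 0.40 in transgenic and 7.05 ± 0.83 in wild-type liver). The summed level of the cholangiocyte list was 12.05 to 12.46 in transgenic and 11.58 to 12.08 in wild-type arrays. Prom1 alone read 9.42 to 9.79 in transgenic and 11.34 to 11.65 in wild-type arrays, so the wild-type sum was mostly that 1 gene. No value is at 0 on this scale. The part of these cell types in the Entpd2 values was not tested, and in whole tissue a change in cell number and a change in RNA per cell cannot be told apart.

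By root mean square distance over the 6 arrays, after each probe set's wild-type mean was subtracted, the gene with the profile nearest to Entpd2 was Wnt4, a WNT ligand (distance 0.14). It read 10.39, 11.09 and 10.92 in transgenic and 6.52, 6.47 and 6.10 in wild-type arrays. Transgenic replicate 1 was the lowest and replicate 2 the highest for both genes. Next came the stress-induced chromatin protein gene Nupr1 (0.28), the cytochrome oxidase subunit gene Cox7a1 (0.29), the tubulin gene Tubb2b (0.29) and the WNT inhibitor gene Apcdd1 (0.34). Their differences were 4.85, 4.18, 4.28 and 4.40. These genes were picked for their likeness to Entpd2 on these same arrays. Their similar size of rise therefore follows from the search and is no separate result. Shared regulation with Entpd2 was not tested.

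The promoter of Entpd2 is shown because this gene changed most, and that of Nt5e because it acts at the other end of the extracellular chain and fell. Both are from RefSeq on GRCm38.p6, run from 250 bases before the transcript start to 50 after it, and are on the + strand at chr2:25395624-25395923 and chr9:88327359-88327658. Capitals mark TGAGTCA, the consensus of AP-1 factors, and GGGCGG, the GC box, each on either strand.
Entpd2: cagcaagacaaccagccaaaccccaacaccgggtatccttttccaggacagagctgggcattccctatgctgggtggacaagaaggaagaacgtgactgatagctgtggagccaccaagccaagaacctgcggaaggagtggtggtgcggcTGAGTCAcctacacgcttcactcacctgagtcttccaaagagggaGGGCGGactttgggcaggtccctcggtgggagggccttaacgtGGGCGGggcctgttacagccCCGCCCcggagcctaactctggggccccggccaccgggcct
Nt5e: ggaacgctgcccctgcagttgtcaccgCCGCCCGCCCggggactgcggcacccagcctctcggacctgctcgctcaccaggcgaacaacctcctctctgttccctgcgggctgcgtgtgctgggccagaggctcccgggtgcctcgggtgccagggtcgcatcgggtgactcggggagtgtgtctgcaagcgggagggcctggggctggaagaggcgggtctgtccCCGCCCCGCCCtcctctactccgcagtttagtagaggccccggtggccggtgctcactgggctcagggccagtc

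TFEB binds the E-box CACGTG, which reads the same on both strands, and it is not in the Entpd2 or Nt5e window. It is not in the windows listed for the other 4 measured genes either, where Entpd1 and Entpd6 have 2 windows each (those of Entpd6 differ by 1 base). Of 32851 mouse promoter windows of 300 bases, 7.15% hold CACGTG. The Entpd2 window holds 1 AP-1 match, which begins 99 bases before the start, and 3 GC boxes, and the Nt5e window holds 4 GC boxes, in overlapping pairs, and no AP-1 match. These motifs were added after the sequences had been read, and 5.2% and 35.7% of all windows hold them. A window without a match says nothing about binding elsewhere.

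Entpd1 encodes CD39, the surface enzyme of endothelial and immune cells that takes ATP and ADP to AMP. Its 2 probe sets went opposite ways, and neither passed. 1423326_at read 6.30, 6.17 and 6.27 in transgenic and 6.13, 6.16 and 6.04 in wild-type arrays, a difference of 0.14 (SE 0.07). 1450939_at read 5.56, 5.69 and 5.70 in transgenic and 5.79, 6.05 and 5.84 in wild-type arrays, a difference of -0.24 (SE 0.09). The groups did not overlap for either, so the direction for this gene depends on the probe set. With median centring or array weights the second passed as lower, and with scaling to the bacterial controls the first passed as higher (0.51) and the second changed sign (0.14). Among cells that carry CD39, endothelial markers were higher for 1 and lower for 4 of 8 genes, with a summed level of 12.32 to 12.48 in transgenic and 12.28 to 12.53 in wild-type arrays. The higher one, Lyve1, kept its call in 2 of the 6 fits with an array left out, and on the scale of the bacterial controls 3 were higher and 0 lower. Of 8 Kupffer cell markers 3 were lower, against 19.5% of all genes, with a summed level of 13.65 to 14.003 in transgenic and 13.93 to 14.28 in wild-type arrays. Leaving out wild-type replicate 1 made that count 5, and leaving out transgenic replicate 2, wild-type replicate 2 or wild-type replicate 3 made it 1. On the scale of the bacterial controls 0 were lower and 2 higher. Of 7 lymphoid markers 6 were lower (8.42 to 8.77 in transgenic and 9.34 to 9.57 in wild-type arrays), or 3 on that scale. Of 7 granulocyte markers 6 were lower on either scale, with a median difference of -2.00 on the deposited one and a summed level of 11.33 to 12.51 in transgenic and 13.41 to 14.55 in wild-type arrays. Of 5 erythroid markers 3 were higher (10.88 to 11.15 in transgenic and 10.25 to 10.40 in wild-type arrays). Klf1, 1 of those 3, kept its call in 1 of the 6 fits with an array left out. The part of these cell types in the Entpd1 values was not tested.

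**Figure D2:**
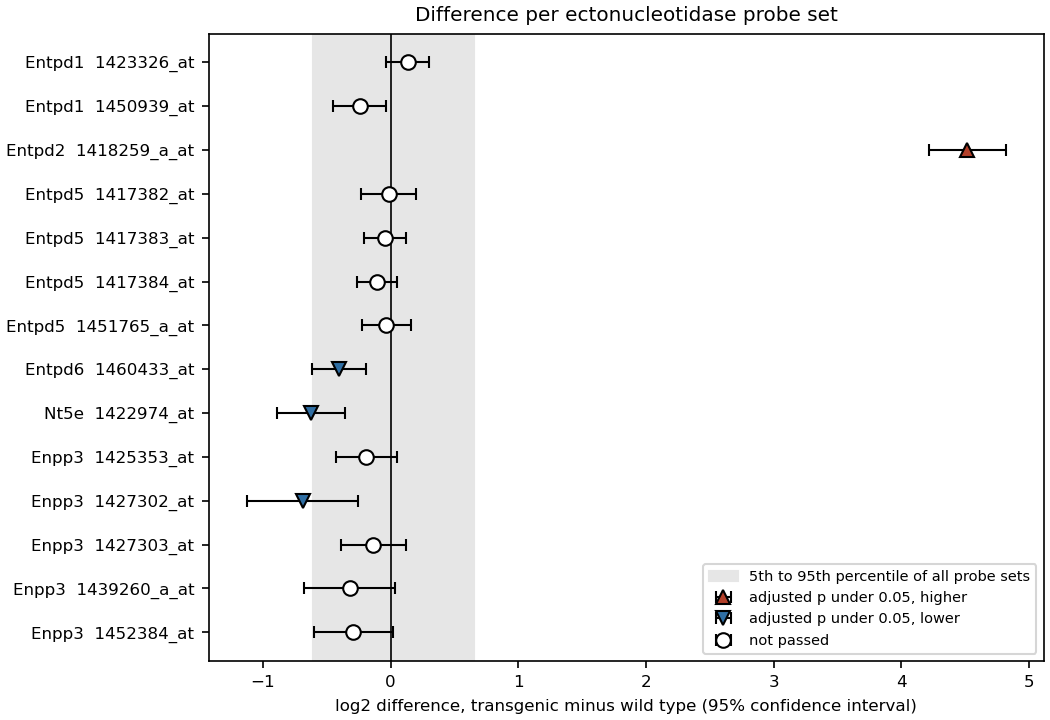
Log2 difference (transgenic minus wild type) of each ectonucleotidase probe set with its 95% confidence interval from the limma fit, not adjusted for the number of probe sets. The grey band runs from -0.61 to 0.66, the 5th to 95th percentile of all 22626 probe sets. Entpd2 lies at 4.52, and the others lie between -0.69 and 0.14 on the deposited scale; scaling to the bacterial controls turned 9 of the 12 negative differences positive.

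Enpp3 encodes a membrane pyrophosphatase that releases AMP and pyrophosphate from ATP. All 5 of its probe sets were lower on average in transgenic liver, by amounts that differed, and 1 passed. 1427302_at read 7.44, 8.05 and 7.96 in transgenic and 8.78, 8.52 and 8.22 in wild-type arrays, a difference of -0.69 (SE 0.19) with no overlap. The brightest, 1439260_a_at, read 9.27, 9.84 and 9.78 in transgenic and 10.11, 9.90 and 9.84 in wild-type arrays (-0.32, SE 0.15). 1452384_at read 8.41, 8.92 and 8.70 in transgenic and 9.11, 8.92 and 8.87 in wild-type arrays (-0.29, SE 0.13). In both, transgenic replicate 2 lay within the wild-type range and the other transgenic arrays below it. The dim probe sets 1425353_at and 1427303_at had differences of -0.19 (SE 0.10) and -0.13 (SE 0.11) and overlapped too.

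Transgenic replicate 1, which alone read as male, was the lowest array for the 3 brighter Enpp3 probe sets, by 0.29 to 0.52 below the next. Without it their differences were -0.50, -0.14 and -0.16 in the order above, and 1427302_at no longer passed. Its call was also lost without wild-type replicate 1 (-0.55) or wild-type replicate 2 (-0.68), with the replicate number as a block (-0.69) and on the scale of the bacterial controls (-0.31), where the other 4 were positive. Conversely, 1425353_at passed as lower without transgenic replicate 1 (-0.30) and 1452384_at without transgenic replicate 2 (-0.42), so which Enpp3 probe sets passed depended on the arrays kept. Of 9 hepatocyte markers 6 were lower, led by the tryptophan dioxygenase gene Tdo2, which fell by 3.58. The summed level of the 9 was 16.72 to 16.75 in transgenic and 17.00 to 17.02 in wild-type arrays. Apoa1, 1 of the 6 (-0.19), kept its call in 0 of the 6 fits with an array left out, and the count was 5 in each. On the scale of the bacterial controls 4 were lower and 2 higher, Alb (0.38) and the transthyretin gene Ttr (0.34). The parts of hepatocyte content and of sex in the Enpp3 values were not tested.

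Nt5e (CD73) makes adenosine from AMP at the cell surface. Its probe set (1422974_at) read 5.85, 5.60 and 5.52 in transgenic and 6.41, 6.32 and 6.10 in wild-type arrays. Every transgenic array was lower than every wild-type array. The mean was 5.66 ± 0.17 in transgenic and 6.28 ± 0.16 in wild-type liver, a difference of -0.62 (SE 0.12), which is 0.651 of the wild-type level and larger in size than 89.6% of all probe sets. It passed with each array left out (-0.72 to -0.55) and not on the scale of the bacterial controls (-0.24). These are dim readings, since 60.5% of probe sets had a higher mean. Nt5e is also carried by lymphocytes and stromal cells. Of 7 lymphoid markers 6 were lower, with values given above. Ms4a1, 1 of those 6, kept its call in 3 of the 6 fits with an array left out. Of 8 stellate cell markers 4 were lower, among them the reelin gene Reln, which fell by 1.06, and Rgs5, which fell by 1.97. Dcn, another of the 4, kept its call in 2 of the 6 fits. Portal fibroblast markers, given above, went both ways (2 higher and 3 lower of 8). The summed stellate level was 12.60 to 12.76 in transgenic and 13.38 to 13.50 in wild-type arrays, and its part in the Nt5e values was not tested. On the scale of the bacterial controls 3 stellate cell markers were lower and 2 higher.

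Entpd6 encodes a Golgi and secreted enzyme that prefers nucleoside diphosphates. Its probe set (1460433_at) read 6.55, 6.80 and 6.62 in transgenic and 6.98, 7.03 and 7.17 in wild-type arrays. The groups did not overlap, and the difference was -0.40 (SE 0.09), or 0.756 of the wild-type level. It passed with each array left out (-0.48 to -0.35), and it was -0.02 and did not pass on the scale of the bacterial controls.

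Entpd5 encodes an enzyme of the endoplasmic reticulum (ER) lumen that breaks down UDP left by glycoprotein refolding. None of its 4 probe sets passed, and their differences ran from -0.10 to -0.02. The brightest, 1417382_at, read 9.50, 9.63 and 9.62 in transgenic and 9.75, 9.59 and 9.44 in wild-type arrays (95% confidence interval of the difference -0.23 to 0.20). 1417384_at read 9.20, 9.12 and 9.20 in transgenic and 9.30, 9.23 and 9.29 in wild-type arrays, with the transgenic arrays lower by a small margin (-0.10, SE 0.07). The other probe sets, 1417383_at and 1451765_a_at, differed by -0.04 (SE 0.07) and -0.03 (SE 0.08). On the scale of the bacterial controls all 4 passed as higher, by 0.28 to 0.36, where the median of all probe sets was 0.34.

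**Figure D3:**
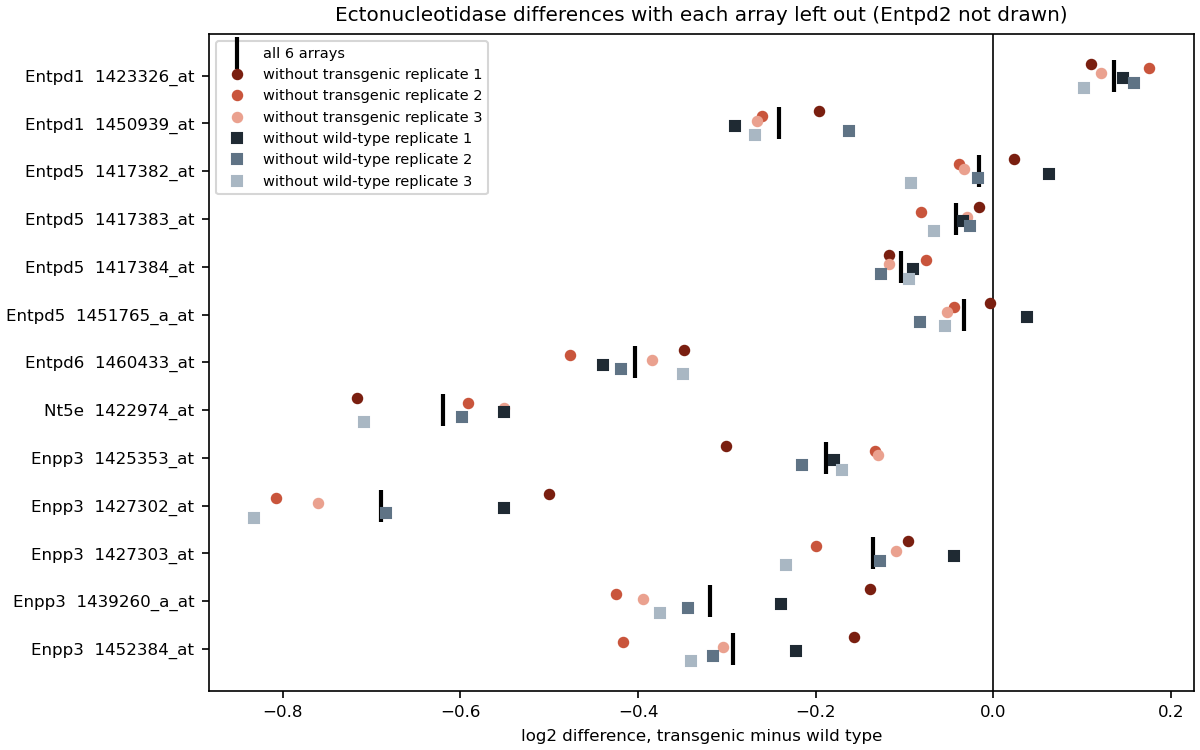
Log2 difference (transgenic minus wild type) of the 13 probe sets other than Entpd2 with all 6 arrays (black bars) and with each array left out in turn (circles for transgenic, squares for wild-type arrays). Nt5e stays between -0.72 and -0.55 and Entpd6 between -0.48 and -0.35, while Enpp3 1427302_at runs from -0.83 to -0.50 and 2 Entpd5 probe sets cross 0.

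Other genes were read from 12 lists, with each gene represented by its probe set of highest mean. Not all of them handle nucleotides, since the lists also cover lysophosphatidic acid, phosphate transport and ER glycoprotein folding. Of 76 measured genes (96 listed), 13 were higher, 18 lower and 45 did not pass. These 31 called genes are 40.8% of the 76, against 38.6% of 12393 genes (19.1% higher and 19.5% lower). On the scale of the bacterial controls 40 were higher and 5 lower, namely Abcc6, Pnp, P2ry14, Gjb1 and Plpp3. On that scale 61.3% of all probe sets passed, and 93.4% of those were higher, so the count of 40 goes with the shift in scale. With each array left out in turn, 23 of the 31 kept their call every time. No probe set was named for any of the 4 adenosine receptor genes, which were not analysed here.

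**Figure D4:**
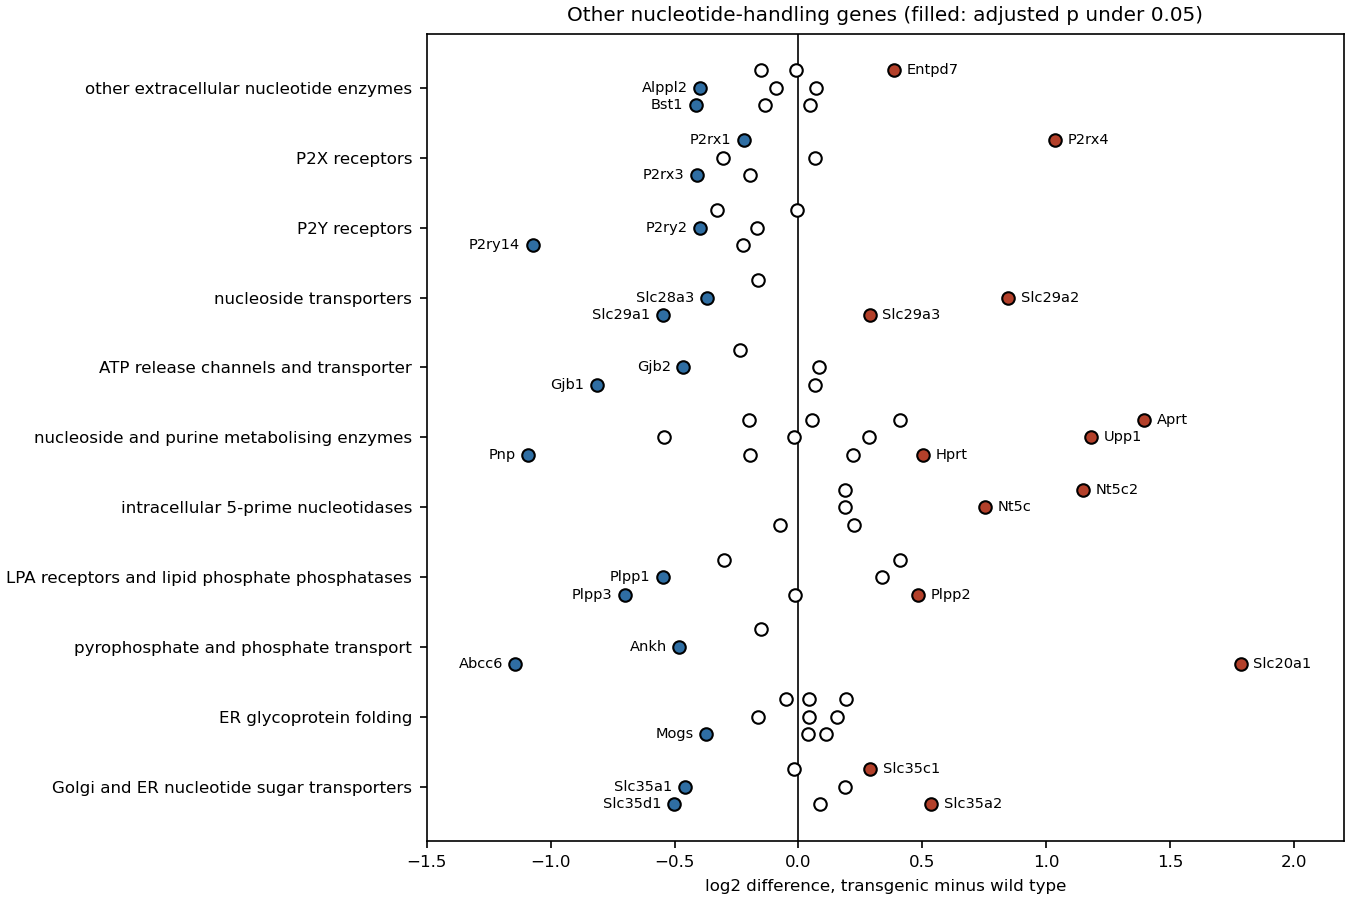
Log2 difference (transgenic minus wild type) of the 76 other listed genes by list, on the deposited scale. Not all of them handle nucleotides. Filled points passed an adjusted p of 0.05 (red higher, blue lower) and are named; Slc20a1 lies farthest up at 1.78 and Abcc6 farthest down at -1.14.

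Among the receptors that read extracellular nucleotides, P2rx4, an ATP-gated channel also found in lysosomes, rose. It read 10.77 ± 0.07 in transgenic and 9.73 ± 0.03 in wild-type liver (difference 1.03, SE 0.07, limma adjusted p = 3.48e-05), and both of its probe sets passed. P2rx1 fell by 0.22 and P2rx3 fell by 0.41, both ATP-gated channels, and 3 of the 6 measured P2X genes did not pass. P2rx1 passed on 1 of its 2 probe sets. P2ry14, the receptor for UDP-glucose, fell to 6.44 ± 0.15 in transgenic against 7.51 ± 0.15 in wild-type liver (difference -1.07, SE 0.11, limma adjusted p = 0.000229). P2ry2, the ATP and UTP receptor, fell by 0.40, and 4 of 6 P2Y genes did not pass. P2rx1 kept its call in 0, P2rx3 in 3 and P2ry2 in 2 of the 6 fits with an array left out. None of the 3 passed on the scale of the bacterial controls. Their readings were dim, since 68.7%, 70.4% and 76.6% of probe sets had a higher mean.

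Steps that follow the ectonucleotidases went both ways. Of 5 nucleoside transporters, Slc29a2 rose by 0.85 and Slc29a3, found in lysosomes, by 0.29, while Slc29a1 fell by 0.55 and Slc28a3 fell by 0.37. Of 12 purine and nucleoside enzymes, the phosphoribosyltransferase genes Aprt (1.39) and Hprt (0.50) and the uridine phosphorylase gene Upp1 (1.18) were higher, and the purine nucleoside phosphorylase gene Pnp was lower (-1.09). Of 6 intracellular nucleotidases, Nt5c2 (1.15) and Nt5c (0.75) were higher and 0 lower. Slc29a3 kept its call in 3 of the 6 fits with an array left out, and passed on 1 of its 2 probe sets. Slc29a2 and Slc28a3 gave dim readings, since 72.6% and 80.2% of probe sets had a higher mean.

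Of 9 relatives and other nucleotide enzymes listed with the ectonucleotidases, Entpd7, an intracellular NTPDase, was higher (0.38), with 2 of its 4 probe sets passing. Alppl2 (-0.40), with 1 of its 2 probe sets passing, and the ADP-ribosyl cyclase gene Bst1 (-0.42) were lower. Entpd7, Alppl2 and Bst1 each lost the call with 1 or more arrays left out, in 1, 2 and 3 of the 6 fits. Their readings were dim, since 74.1%, 67.6% and 71.5% of probe sets had a higher mean. Enpp4 (-0.14) and Enpp5 (-0.01), relatives of Enpp3, did not pass. In ATP release, the connexin genes Gjb1 and Gjb2, which form liver gap junctions, fell by 0.81 and fell by 0.46, and Gja1, Slc17a9 and the pannexin gene Panx1 did not pass. In pyrophosphate supply, Abcc6, a hepatocyte transporter needed for ATP release into blood, fell by 1.14 and Ankh fell by 0.48, while the phosphate transporter gene Slc20a1 rose by 1.78. Among 7 genes of lysophosphatidic acid handling, the phosphatase genes Plpp3 and Plpp1 fell by 0.70 and fell by 0.55. Plpp2 rose by 0.48, with 1 of its 2 probe sets passing.

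Of 9 ER glycoprotein folding genes, 1 passed, the glucosidase gene Mogs, which fell by 0.37. On the scale of the bacterial controls 7 were higher and 0 lower. Uggt1, the folding sensor whose reaction gives the UDP that Entpd5 removes, differed by -0.16 (SE 0.09), and Cmpk1 by 0.04 (SE 0.07). Of 7 nucleotide sugar transporters, 2 were higher (Slc35a2 by 0.54 and Slc35c1 by 0.29) and 2 lower (Slc35d1, which fell by 0.50, and Slc35a1, which fell by 0.46). Slc35c1 kept its call in 3 of the 6 fits with an array left out, and Slc35a2 passed on 1 of its 4 probe sets.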

How the data were processed

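Liver RNA was labelled with biotin as cRNA for Affymetrix arrays, per the labels' protocols. The authors deposited log2 values, 1 per probe set, made with RMA in affy (versions not given), per the submitters' processing notes. Because RMA makes the arrays' distributions alike, a change in total RNA cannot be seen. The table holds 22690 probe sets, of which 64 array controls were left out of the tests, with 0 missing values. Platform annotation names 1 gene for 20380 probe sets, several for 691 and none for 1555. Entrez identifiers matched 20351 to RefSeq (GRCm38.p6), and 0 symbols changed.

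Groups came from the sample titles. All 22626 probe sets were fitted with limma 3.58.1 (lmFit, eBayes, no covariates, two-sided) in R 4.3.3. P-values were adjusted by Benjamini and Hochberg's method over all of them, with a threshold of 0.05. Exact permutation of 3 against 3 has a smallest p of 0.1 and was not run. Members, lists and tests were chosen with earlier results of these data known. Named were all member probe sets, up to 3 passing genes per list (all passing P2X and P2Y genes), the 5 profiles nearest to Entpd2, and, outside that rule, chosen after their values were seen, Ada, Cftr, Krt19, Enpp4, Enpp5, Uggt1, Cmpk1, Hprt, Slc29a3, Slc35c1, Panx1, Gja1, Slc17a9 and the check genes Tfeb, Alb, Xist and Eif2s3y. The alternatives are given in the closing section. On simulated data with 200 of 22626 probe sets changed, log2 changes of 0.5, 1 and 2 were recovered for 47.8%, 89.6% and 98.5%, with 10 false calls among 22426 unchanged probe sets. In the real data 35.4% of probe sets passed, a far larger share. The adjusted p depends on that share, so these recovery rates do not carry over to this fit. Figures used Python 3.11.15, pandas 2.3.3 and matplotlib 3.10.9.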

Additional observations from a re-analysis of the deposited data

How the results depend on the processing

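The difference of Entpd2 stayed between 4.41 and 4.90 and past the threshold under all 15 alternatives that gave it a value. Of 209 member values under the alternatives, 183 kept direction and side of the threshold. Of the rest, 5 kept direction and newly passed, 7 kept direction and no longer passed, and 14 changed sign. Those 14 include the 4 Entpd5 probe sets, which also newly passed, as higher, on the scale of the bacterial controls. Scaling to the bacterial controls, which by construction adds nearly the same amount to every difference, gave 13870 passing probe sets against 8006 (12955 higher against 4087, 915 lower against 3919), with 6 member probe sets higher against 1 and 0 lower against 3. It changed the sign of Entpd1 1450939_at (0.14), Entpd5 1417382_at (0.36), 1417383_at (0.34), 1417384_at (0.28) and 1451765_a_at (0.35), and Enpp3 1425353_at (0.19), 1427303_at (0.24), 1439260_a_at (0.059) and 1452384_at (0.086). Entpd5 1417382_at and 1451765_a_at also changed sign with array weights (0.020 and 0.0048) and ran from -0.093 to 0.063 and from -0.083 to 0.037 with an array left out. Neither passed under those settings. The causes of these changes, other than the shift in scale, were not tested.

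With 1 probe set per gene, 4990 of 12393 passed (2467 higher, 2523 lower), fewer because fewer were tested. Without probe sets with the suffixes _a_at, _s_at or _x_at, 5178 passed with 2423 higher, and 0 member probe sets were higher because this setting removes the Entpd2 probe set itself. With an array left out, 5904 to 7596 probe sets passed (3017 to 3874 higher, 2808 to 3722 lower), with 3 to 5 member probe sets. Deviations of same-numbered arrays from their group means correlated at -0.10, -0.02 and 0.05. With 3 arrays a group, these values cannot exclude a pairing by replicate number. With the replicate block 6757 probe sets passed, 3 of them members, and Enpp3 1427302_at was the member that no longer did. Signal over background is unknown, which limits the dim probe sets of Nt5e, Entpd1 and Enpp3 (1425353_at and 1427303_at). The same limit holds for dim probe sets of the listed genes, among them Slc29a2, Slc28a3, P2rx1, P2rx3, P2ry2, Entpd7, Alppl2 and Bst1.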
